A study of Homo sapiens with 24 samples.

Results

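The comparison set the transcriptional response of 2 human leukaemia lines of T-cell acute lymphoblastic origin (T-ALL) to the compound NVS-ZP7-3 against each other: the response of RPMI-8402 minus the response of SUPT11. A response was the mean of 3 NVS-ZP7-3 arrays minus the mean of 3 DMSO arrays of the same line, and the difference of responses is positive where a gene moved up more, or down less, in RPMI-8402. The member genes were those whose brightest probe set averaged log2 6 or more in the DMSO arrays of both lines, which kept 7996 of 19775 genes, so that the baseline signal of either line left room for a fall. A further 748 genes reached that level only in RPMI-8402 DMSO and 737 only in SUPT11 DMSO, and these were left out. ZNF692, at 6.002 in SUPT11 DMSO, and HGH1, at 6.011, lay just inside the limit, while MAD1L1, at 5.999 in RPMI-8402 DMSO, and MR1, at 5.996, lay just outside it. The 12 arrays used here are 4 groups of 3: RPMI-8402 with DMSO, RPMI-8402 with NVS-ZP7-3, SUPT11 with DMSO and SUPT11 with NVS-ZP7-3. The remaining arrays of the 24 in the study came from the T-ALL lines TALL-1 and P12-ICHIKAWA, treated in the same way. They entered the fit to share its estimate of the spread. They also counted in the choice of each gene's brightest probe set, by its mean over all 24 arrays, and in the filter for genes tested. All cells, controls included, were held at 0.5% DMSO for 16 h, at an equal cell number and volume. The dose of NVS-ZP7-3 and the growth medium are not given in the sources used here. Each line is an established leukaemia line, so a difference between them is a difference between 2 lines and not between classes of T-ALL. Nothing in the labels says that the 3 arrays of a group came from separate cultures, and p-values then measure only the spread between these arrays, which may be technical.

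NVS-ZP7-3 is known here by its code name, which refers to ZIP7, the common name of the zinc transporter SLC39A7. SLC39A7 sits in the membranes of the endoplasmic reticulum (ER) and Golgi and passes zinc from their lumen to the cytosol, and NVS-ZP7 compounds are known from work on Notch signalling in T-ALL. When unfolded protein builds up in the ER, 3 sensors start the unfolded protein response: ATF6, whose released fragment induces ER chaperones, IRE1 (gene ERN1), which splices the XBP1 transcript so that XBP1 induces ER-associated degradation (ERAD), translocation and secretory genes, and PERK (gene EIF2AK3), which slows translation and raises ATF4, the inducer of amino acid supply genes and of CHOP. The transcription factor SREBP2, also held in the ER membrane, controls cholesterol synthesis. All values below are log2 expression values, and a gene was called where the limma adjusted p was under 0.05 over the 10661 genes tested in all.

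Some arrays stood apart. On the third RPMI-8402 DMSO array 38 genes lay above log2 6 that were under 3 on the other 5 RPMI-8402 arrays, with the beta-globin gene HBB at 14.65 and the lysozyme gene LYZ at 12.54, and on the second SUPT11 NVS-ZP7-3 array HBB was at 10.61. HBB varied on the other RPMI-8402 arrays as well, from 2.32 to 12.99. The summed signal of the 6 erythroid markers measured of 11 listed ran from log2 4.79 to 14.68 on the RPMI-8402 DMSO arrays and from 8.71 to 12.99 with NVS-ZP7-3, and from 4.77 to 4.79 and from 4.77 to 10.63 in SUPT11, with AHSP and CA1 at the floor throughout. None of the erythroid, myeloid, B-cell or epithelial marker genes was a member. Of the NK and cytotoxic markers 1 was, the granzyme GZMA, which fell by 1.76 in RPMI-8402 (difference -1.54, adjusted p = 0.00886), against a change of -0.23 in SUPT11. Of 8 T-cell marker members 4 fell in RPMI-8402, against 21.5% of all genes tested, and none was called in SUPT11, against 1.76%. The difference was lower for 2, CD2 and CD3G, against 9.83% of all genes tested. The T-cell markers measured, 9 of 9, reached log2 4 or more in both lines. The ratio of the 3′ to the 5′ probe set of ACTB, a sign of RNA integrity, was 0.30 higher on the log2 scale with NVS-ZP7-3 in RPMI-8402 (exact permutation test, two-sided, p = 0.1, the smallest that 3 against 3 allows) and 0.048 higher in SUPT11 (p = 0.4, same exact test). Counts are also given without 3 arrays with transcripts foreign to their line: this RPMI-8402 DMSO array, this SUPT11 array and the second TALL-1 NVS-ZP7-3 array. They were chosen after the data were seen, the first pair for such raised transcripts and the TALL-1 array from earlier results of these data, and by no fixed threshold. Counted afterwards, genes at the floor in a line by its median and bright in another line lay above log2 4 for 7 of 89 on the RPMI-8402 array, 9 of 112 on the SUPT11 array and 20 of 189 on the TALL-1 array, for 1 of 111 on the first P12-ICHIKAWA NVS-ZP7-3 array and for none on the others. HBB and LYZ would give another choice: HBB was at 10.48, 8.63 and 12.99 on the RPMI-8402 NVS-ZP7-3 arrays, LYZ at 9.88 on the third of them, and all these arrays were kept, while HBB was at the floor on the TALL-1 array left out. Leaving out these 3 arrays therefore does not remove such transcripts from the comparison, and the part of these and of RNA integrity in the results was not tested beyond the alternatives given.

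More members changed in RPMI-8402 than in SUPT11. Among the 7996 members, 3164 changed with NVS-ZP7-3 in RPMI-8402 (1265 rose and 1899 fell, 39.6% of the members, against 36.6% of all genes tested, 15.1% up and 21.5% down), while 87 changed in SUPT11 (69 rose and 18 fell, 1.09%, against 1.76% of all genes tested, 1.18% up and 0.582% down). At an unadjusted p under 0.05 the SUPT11 count was 579. The 3 treated arrays lay wholly above or below the 3 DMSO arrays for 4289 members in RPMI-8402 and 1459 in SUPT11, against 49.2% and 16.6% of all genes tested. The median size of a response, whatever its sign, was 0.176 in RPMI-8402 and 0.058 in SUPT11. The difference itself was called for 1366 members: 591 were higher in RPMI-8402 and 775 lower, 17.1% of the members against 17.4% of all genes tested; the members as a set were near the background. The difference was at least 1 in size for 142 of them, 88 higher and 54 lower. Of the 591, 583 rose in RPMI-8402, and of the 775, 755 fell there. In a fit without the 3 arrays with foreign transcripts 1065 members were called, 994 of them among the 1366. The 18 falls in SUPT11 dropped to 5 in that fit, while the 69 rises numbered 54. Leaving out a single array gave 4 falls without the third SUPT11 DMSO array, 7 without the second, 11, 9 and 9 without the first, the second and the third SUPT11 NVS-ZP7-3 array, and 12 without the first RPMI-8402 DMSO array. There were 31 falls under quantile normalization and 5 with HBB as a covariate.

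**Figure D1:**
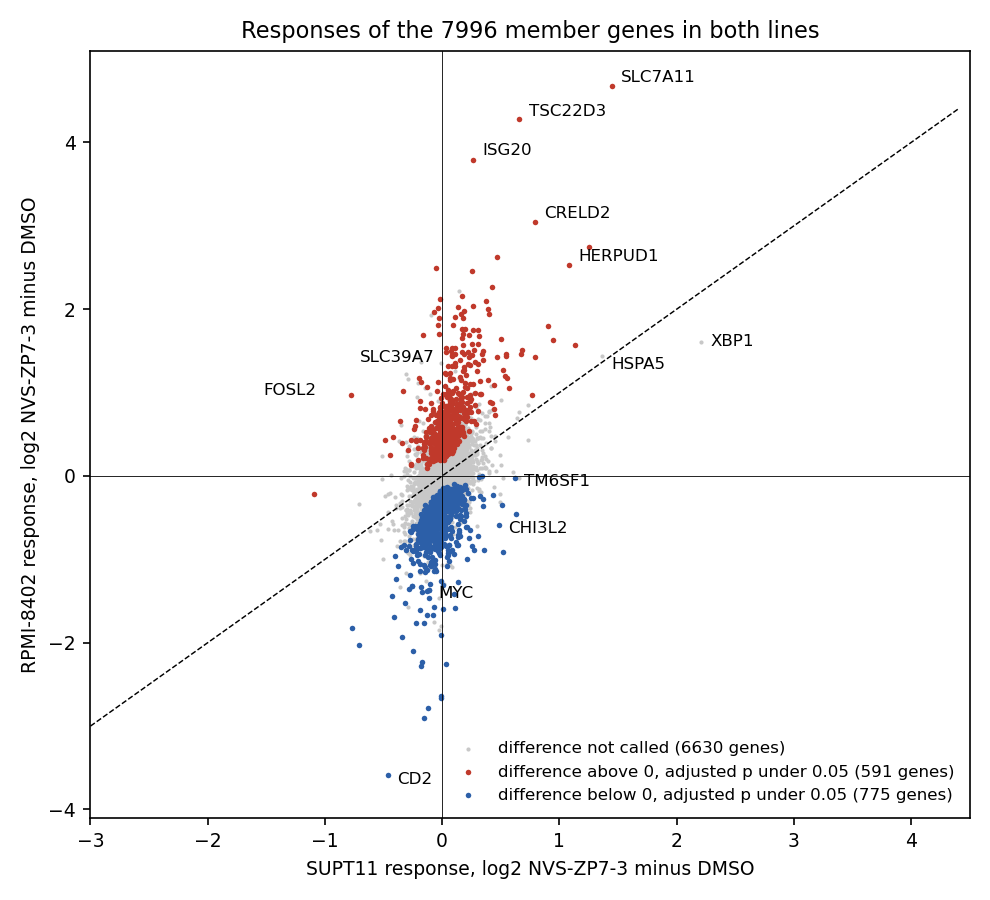
Response of each of the 7996 member genes in SUPT11 (horizontal axis, log2) and in RPMI-8402 (vertical axis, log2), 3 arrays a group; the dashed line marks equal responses. The cloud is stretched along the vertical axis, with 591 red genes above the line and 775 blue genes below it, while HSPA5 lies close to the line and XBP1 to the right of it.

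For most called members the response was called in RPMI-8402 alone. Of the 1366, 1291 were called in RPMI-8402 and not in SUPT11, 42 were called in both lines in the same direction, 5 in both lines in opposite directions, 5 in SUPT11 alone and 23 in neither. Seen from SUPT11, 73 of its 87 called members were also called in RPMI-8402 in the same direction (61 rose in both and 12 fell in both). The RPMI-8402 response was the larger for 63 of these 73, with a median size of 0.84 against 0.42. For 1826 members called in RPMI-8402 the difference was not called, so a difference between the lines was not shown for them.

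The amino acid and ATF4 genes were among those with the widest gap. Of 20 members on the list of ATF4 and CHOP targets, 18 rose in RPMI-8402 and 2 in SUPT11, and the difference was higher for 14 and lower for none, against 7.59% higher among all genes tested, with a list median of 0.59 against -0.043 over all genes tested. SLC7A11, the cystine importer that feeds glutathione synthesis, was at 8.19, 8.33 and 7.69 on the RPMI-8402 DMSO arrays and at 12.62, 12.72 and 12.90 with NVS-ZP7-3. In SUPT11 it was at 7.59, 7.74 and 7.48 with DMSO and at 9.05, 8.99 and 9.11 with the compound. It thus rose in both lines without overlap of the groups, by 4.68 and by 1.44, and the difference was 3.23 ± 0.20 (SE, adjusted p = 2.05e-09). PCK2, the mitochondrial enzyme that makes phosphoenolpyruvate, rose by 2.46 in RPMI-8402, where no treated array overlapped a DMSO array, against a change of 0.25 in SUPT11 (difference 2.21 ± 0.24, adjusted p = 2.87e-06). DDIT4, an inhibitor of mTORC1, was at 11.99, 12.30 and 12.15 in RPMI-8402 DMSO and at 13.87, 13.78 and 13.88 with NVS-ZP7-3. Its SUPT11 arrays lay at 14.01, 13.98 and 14.05 with DMSO and 13.98, 13.99 and 13.99 with the compound. SUPT11 therefore held before treatment the DDIT4 level that RPMI-8402 neared after it, and the difference was 1.73 ± 0.08 (adjusted p = 3.03e-11). ATF5, a transcription factor of the same pathway, rose by 1.81 in RPMI-8402 and changed by 0.10 in SUPT11, and the transcript of ATF4 itself rose by 0.53 in RPMI-8402 against 0.11 in SUPT11 (difference 0.42 ± 0.05, adjusted p = 1.14e-05).

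Amino acid transporters with a called difference were all higher, while the enzymes that charge tRNAs were split. Of 11 transporter members 7 were higher in the difference and none lower (median 0.39). SLC1A4, a carrier of small neutral amino acids, rose by 2.04 in RPMI-8402 and by 0.26 in SUPT11 (difference 1.77 ± 0.08, adjusted p = 1.13e-11), and SLC3A2, the heavy chain that partners SLC7A11, rose by 1.76 in RPMI-8402 against 0.17 in SUPT11 (difference 1.59 ± 0.20, adjusted p = 1.73e-05). The glutamine carrier SLC1A5 had a difference of 1.09 with an adjusted p of 0.00967, which became 0.85 and 0.0772 without the 3 arrays with foreign transcripts. Of 17 aminoacyl-tRNA synthetases 9 rose and 6 fell in RPMI-8402, none changed in SUPT11, and the difference was higher for 7 and lower for 1. The cytosolic enzymes CARS1 (difference 1.24 ± 0.10), AARS1 (1.03 ± 0.14), WARS1 (0.81 ± 0.14) and IARS1 (0.51 ± 0.10) had the largest of these differences, and each rose in RPMI-8402. The ATF4 branch genes DDIT3 (CHOP), TRIB3, CHAC1, ATF3 and ASNS were not members, since each averaged under log2 6 in the DMSO arrays of at least 1 line.

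Many ER folding genes rose in both lines. Of 30 ER chaperones and disulfide isomerases among the members, 25 rose in RPMI-8402 and 16 in SUPT11, none fell in either, and all 16 also rose in RPMI-8402. For 12 of the 16 the rise was larger in RPMI-8402 by the test of the difference, and for 4 it was not shown to differ. HSPA5 (BiP), the main Hsp70 chaperone of the ER lumen, was among those 4. It was at 13.28, 13.23 and 13.20 in RPMI-8402 DMSO and at 14.66, 14.71 and 14.63 with NVS-ZP7-3, and at 13.07, 13.01 and 13.12 in SUPT11 DMSO and 14.48, 14.41 and 14.40 with the compound. Both lines separated fully, with rises of 1.43 and 1.36, and the difference was 0.07 with a 95% interval from -0.13 to 0.27. The difference changed sign, without being called, when all probe sets of HSPA5 were averaged (-0.16) or ACTB integrity was a covariate (-0.02). HSP90B1 (GRP94), the Hsp90 of the ER, rose by 0.86 and 0.73 (difference 0.13, interval -0.05 to 0.30), and was called higher only when its probe sets were averaged (0.23). The lectin chaperone CALR rose by 0.43 in RPMI-8402 and 0.73 in SUPT11 (difference -0.29, interval -0.56 to -0.03, adjusted p = 0.123), and CANX, its membrane-bound counterpart, rose by 0.26 and 0.23 (difference 0.03). XBP1 likewise rose in both lines without a called difference, and went from 11.22, 11.18 and 11.40 to 12.97, 13.07 and 12.60 in RPMI-8402, and from 7.43, 7.48 and 6.94 to 9.63, 9.52 and 9.31 in SUPT11. The rises were 1.61 and 2.21, and the difference of -0.60 (interval -1.17 to -0.02) was not called (adjusted p = 0.152), although it was under quantile normalization, at -0.77. HSPA5, HSP90B1, CALR, CANX and XBP1 were picked out after their values were seen. These arrays measure the total XBP1 transcript and not its splicing.

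Other ER folding genes rose more in RPMI-8402. CRELD2, a disulfide isomerase-like protein of the ER, was at 7.75, 7.82 and 7.73 with DMSO and 10.81, 10.84 and 10.79 with NVS-ZP7-3 in RPMI-8402, and at 8.57, 8.62 and 8.63 against 9.40, 9.49 and 9.32 in SUPT11. No groups overlapped in either line, and the rises of 3.05 and 0.79 differed by 2.25 ± 0.14 (adjusted p = 1.11e-09). DNAJB9 (ERdj4), an HSPA5 co-chaperone that also restrains IRE1, rose by 2.63 and 0.47 (difference 2.16 ± 0.16, adjusted p = 2.33e-08), and its SUPT11 rise was not called without the 3 arrays with foreign transcripts (adjusted p = 0.158). For FKBP14 and FKBP11, peptidyl-prolyl isomerases of the ER, only the RPMI-8402 rise was called: FKBP14 went from 8.62, 8.19 and 8.21 to 10.47, 10.35 and 10.57 there, while its SUPT11 arrays ran from 5.99 to 6.70 with the groups overlapping. The differences were 2.14 ± 0.26 for FKBP14 and 1.80 ± 0.18 for FKBP11. The median difference of the list was 0.45.

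**Figure D2:**
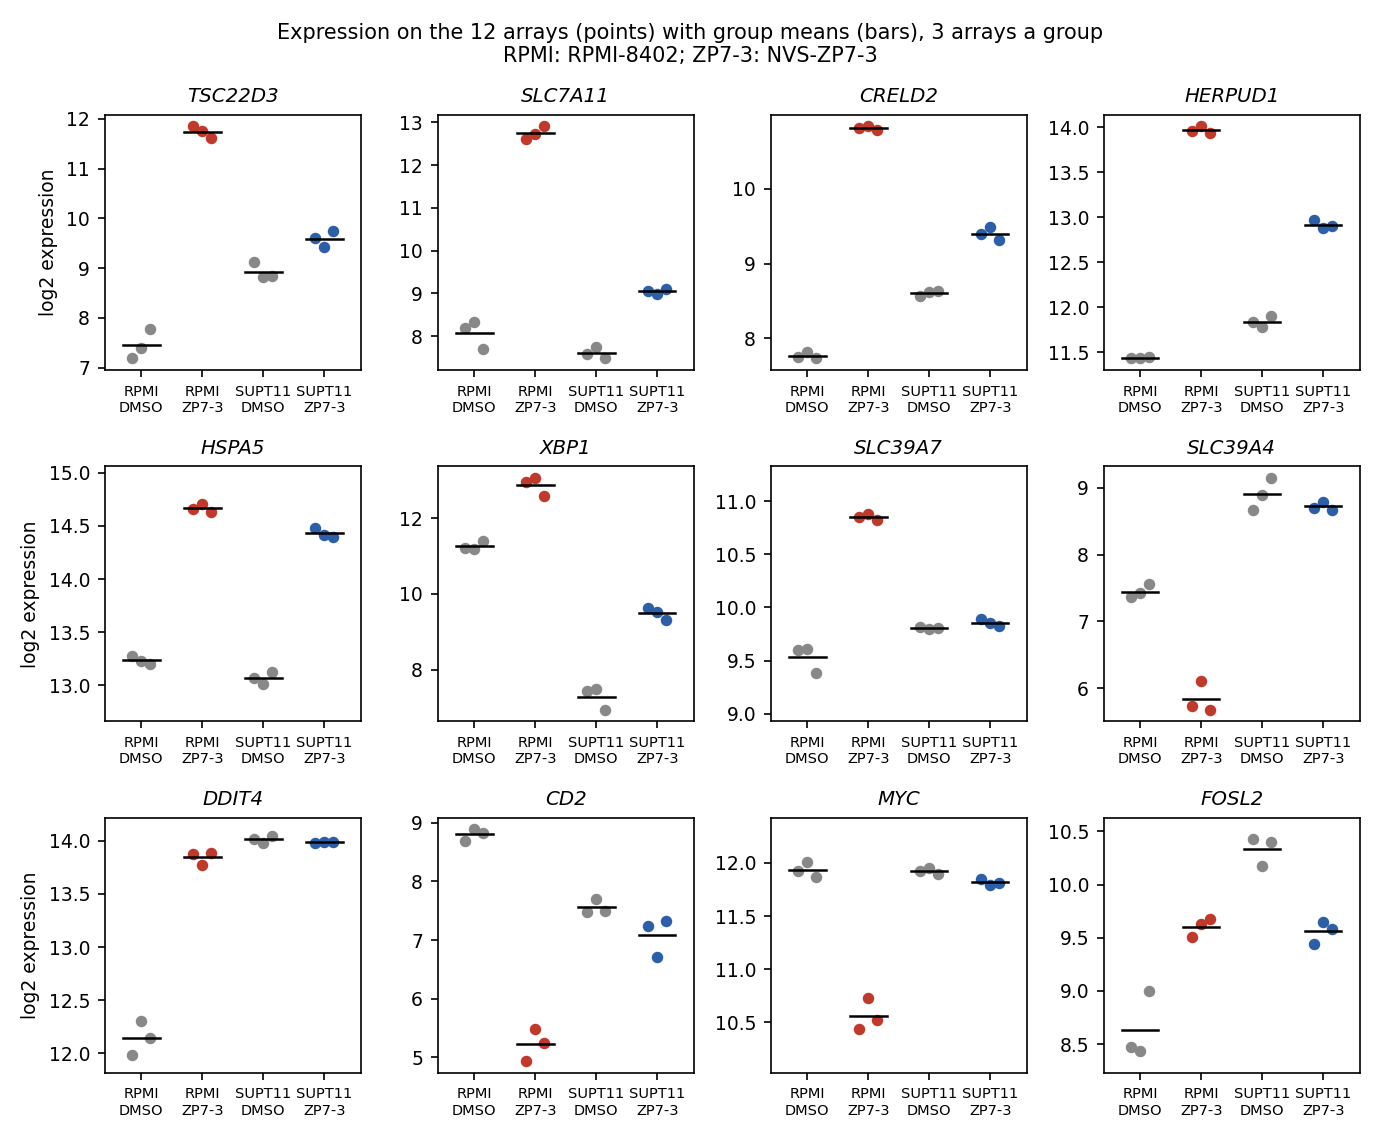
Log2 expression of 12 genes on each of the 12 arrays (points) with group means (bars), RPMI-8402 in the left pair of columns and SUPT11 in the right pair of each panel. HSPA5 and XBP1 rise in both lines, SLC7A11, CRELD2 and HERPUD1 rise more in RPMI-8402, SLC39A7 and DDIT4 rise in RPMI-8402 alone, MYC, CD2 and SLC39A4 fall there, and FOSL2 moves in opposite directions.

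ERAD, translocon and vesicle genes rose in RPMI-8402, with few calls in SUPT11. Of 37 members among XBP1 targets, ERAD and translocon genes, 34 rose in RPMI-8402 and 4 in SUPT11, and the difference was higher for 30 and lower for none (median 0.43), 27 of them without the 3 arrays with foreign transcripts. HERPUD1, an ER membrane protein that organises the ERAD ligase, was at 11.43, 11.43 and 11.44 in RPMI-8402 DMSO and at 13.96, 14.01 and 13.93 with NVS-ZP7-3. In SUPT11 it went from 11.83, 11.77 and 11.90 to 12.96, 12.88 and 12.90. It rose without overlap in both lines, by 2.53 and 1.08 (difference 1.45 ± 0.08, adjusted p = 3.35e-10). EDEM2, which trims mannose from misfolded glycoproteins (1.24 ± 0.12), SEC61A1, the pore of the translocon (1.22 ± 0.11), and SELENOS, a selenoprotein of the ERAD complex (1.21 ± 0.17), rose in RPMI-8402 by 1.35, 1.32 and 1.23. Their SUPT11 changes were 0.11, 0.11 and 0.02, none of them called. Of 32 genes of ER export and the COPII and COPI coats, 24 rose and 1 fell in RPMI-8402 and none was called in SUPT11. The difference was higher for 23 and lower for 1 (median 0.39), and for 18 and 1 without the 3 arrays. GOLGB1, the Golgi tether giantin, was at 8.17, 8.22 and 8.18 with DMSO and 9.95, 10.05 and 9.99 with NVS-ZP7-3 in RPMI-8402, with SUPT11 at 7.55, 7.56 and 7.38 against 7.46, 7.66 and 7.27 (difference 1.84 ± 0.27, adjusted p = 8.87e-05). SEC24D, a cargo adaptor of COPII, had a difference of 1.72 ± 0.20, and COPG1, a subunit of the COPI coat, of 1.19 ± 0.12.

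All 3 sensors had a higher difference. ERN1 (IRE1) was at 10.12, 9.65 and 9.90 in RPMI-8402 DMSO and at 11.73, 11.89 and 11.75 with NVS-ZP7-3, and between 9.55 and 9.84 on all 6 SUPT11 arrays, where the groups overlapped (difference 1.93 ± 0.14, adjusted p = 9.39e-09). EIF2AK3 (PERK) rose by 1.50 in RPMI-8402 against 0.35 in SUPT11 (difference 1.15 ± 0.15, adjusted p = 1.86e-05), and CREBRF, a regulator of CREB3, by 1.21 against 0.20 (difference 1.01 ± 0.20). ATF6 rose by 0.40 in RPMI-8402 and changed by 0.04 in SUPT11 (difference 0.36 ± 0.08, adjusted p = 0.00278). Of the 14 members on the list of sensors and factors, 9 rose and 1 fell in RPMI-8402 and 2 rose in SUPT11, and the difference was higher for 6 and lower for 1.

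Short promoter motifs of these pathways were counted in RefSeq windows of 250 bases before to 50 after each gene's start (assembly GRCh38.p14), on both strands, to see whether the genes that moved in both lines and those that differed carried the same letters. A window was found for 6755 of the 7996 members. The ER stress element that ATF6 binds with NF-Y, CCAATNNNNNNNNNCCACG, was in 7 of 51 windows of members that rose in both lines (13.7%), in 3 of 504 windows of members with a higher difference (0.595%), in none of 656 with a lower difference, in 0.163% of all members' windows and in 0.0806% of all 27305 windows. The 7 genes were HSPA5, HSP90B1, CALR, CANX, XBP1, CRELD2 and ERO1B, and for the first 5 the difference between lines was not called. These sets overlap: 37 of the 61 members that rose in both lines also had a higher difference, and CRELD2 and ERO1B are in both sets. The core of the element bound by XBP1 and ATF6, TGACGTGG, was in 22 of the 504 windows with a higher difference (4.37%), in 4 of the 656 with a lower one (0.61%), in 1.02% of all members' windows and in 0.795% of all windows. Those 22 include the coatomer genes COPA, COPB1 and COPB2, the COPII gene SEC24A, the chaperone HYOU1, the SNARE STX5 and the ERAD enzyme UBE2J1. The core bound by ATF4 with CEBP proteins, TGATGNAA, was in 22 of 504 (4.37%), 7 of 656 (1.07%) and 1.58% of all members' windows, but in 3.67% of all 27305 windows, close to the share of the members with a higher difference. For 4 tRNA synthetases, AARS1, CARS1, IARS1 and TARS1, and for SLC3A2 and HERPUD1 a match was present. The E-box CACGTG, which MYC binds with MAX, was in 9.92% of windows with a higher and 15.9% of those with a lower difference, against 11.1% of all members' windows and 7.43% of all windows. For the sterol element TCACCCCAC these shares were 1.19%, 0.457%, 0.37% and 0.425%, and for the CSL element TGTGGGAA of the Notch pathway 1.19%, 1.22%, 1.3% and 1.72%. Matches of different motifs overlapped in 4 windows for TGACGTGG and the E-box, 6 for TGATGNAA and the E-box and 1 for the sterol element and the E-box. Matches are descriptions of these windows, without a test, and do not show binding.

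The windows around the matches are printed for 8 genes, chosen to set a gene of like response in both lines beside genes that differed, with the letters of the motif named for each gene in capitals, on the gene's own strand, 5′ to 3′. HSPA5 (chr9:125241371-125241429, minus strand) and XBP1 (chr22:28800583-28800641, minus strand) hold the ER stress element and rose in both lines without a called difference, while CRELD2 (chr22:49918534-49918592, plus strand) holds it in reverse and rose more in RPMI-8402. HYOU1 (chr11:119057366-119057413, minus strand), STX5 (chr11:62832052-62832087, minus strand) and UBE2J1 (chr6:89352926-89352972, minus strand, match in reverse) hold the XBP1 core. AARS1 (chr16:70289666-70289713, minus strand) and HERPUD1 (chr16:56931946-56931993, plus strand) hold the ATF4 core in reverse. The HERPUD1 window also holds an E-box, left in lower case.
HSPA5: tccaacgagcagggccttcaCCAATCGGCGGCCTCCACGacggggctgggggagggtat
XBP1: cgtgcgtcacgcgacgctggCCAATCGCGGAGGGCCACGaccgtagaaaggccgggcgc
CRELD2: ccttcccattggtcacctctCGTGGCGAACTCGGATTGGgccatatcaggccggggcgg
HYOU1: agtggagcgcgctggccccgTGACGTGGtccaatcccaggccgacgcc
STX5: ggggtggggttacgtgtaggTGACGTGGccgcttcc
UBE2J1: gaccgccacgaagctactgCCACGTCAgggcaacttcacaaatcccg
AARS1: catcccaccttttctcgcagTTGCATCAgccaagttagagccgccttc
HERPUD1: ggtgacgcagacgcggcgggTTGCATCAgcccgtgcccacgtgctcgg

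STX5, a SNARE of ER to Golgi transport, rose by 1.58 in RPMI-8402 and changed by 0.31 in SUPT11 (difference 1.27), and UBE2J1, a ubiquitin-conjugating enzyme of ERAD, rose by 0.97 against 0.03 (difference 0.94). HYOU1, an ER chaperone of the Hsp110 kind, rose in both lines, by 1.80 and 0.90 (difference 0.90).

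Of 20 members on the cholesterol list, 17 rose in RPMI-8402 and 11 in SUPT11, all 11 of them in both and 9 of the 11 with a called difference. Over the 20 the difference was higher for 12 and lower for none (median 0.45). LSS, the cyclase that forms lanosterol, was at 10.98, 11.07 and 10.95 with DMSO and 12.71, 12.62 and 12.62 with NVS-ZP7-3 in RPMI-8402, and at 10.20, 10.27 and 10.34 against 10.73, 10.75 and 10.84 in SUPT11. Neither line's groups overlapped, and the rises of 1.65 and 0.50 differed by 1.14 ± 0.11 (adjusted p = 5.69e-07). HMGCS1, the entry enzyme of the pathway, rose by 1.43 and 0.79 (difference 0.64 ± 0.09), DHCR7, the last enzyme, by 1.51 and 0.68 (0.83 ± 0.13), and MSMO1, a sterol demethylase, by 1.15 and 0.39 (0.76 ± 0.08). INSIG1, which holds the SREBP complex in the ER, and SREBF2, the gene of SREBP2, rose in both lines without a called difference; these names were picked out after their values were seen. Of 9 members on the fatty acid list, 6 rose in RPMI-8402 and none was called in SUPT11, and the difference was higher for ELOVL6, a fatty acid elongase (1.09 ± 0.08), and for LPIN1, a phosphatidate phosphatase (0.47 ± 0.12).

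Zinc transporters moved in RPMI-8402 only by the calls, and in both directions. Of 16 members 7 rose and 2 fell in RPMI-8402, none was called in SUPT11, and the difference was higher for 6 and lower for 2. SLC39A7 was at 9.60, 9.61 and 9.38 in RPMI-8402 DMSO and at 10.85, 10.88 and 10.82 with NVS-ZP7-3. In SUPT11 it was at 9.82, 9.79 and 9.81 with DMSO and at 9.89, 9.85 and 9.83 with the compound. The SUPT11 groups did not overlap either, but the change there was 0.05 and not called, and the difference was 1.27 ± 0.15 (adjusted p = 5.19e-06). SLC39A4, a zinc importer of the plasma membrane, fell in RPMI-8402 from 7.36, 7.43 and 7.55 to 5.74, 6.11 and 5.68, while its SUPT11 groups overlapped (difference -1.42 ± 0.30, adjusted p = 0.00239). SLC30A1, which moves zinc out of the cell, rose by 0.57 in RPMI-8402 against -0.02 in SUPT11 (difference 0.60 ± 0.08), and SLC30A7, which loads zinc into the Golgi, by 0.59 against 0.04 (difference 0.56 ± 0.09). Among 6 metallothionein members, small proteins that bind zinc, none was called higher in either line. MT1G was called lower in RPMI-8402, at -0.50 (limma adjusted p = 0.0467), but not without the 3 arrays with foreign transcripts. Only MT2A had a called difference, at -0.56 ± 0.17 (adjusted p = 0.0237). That call was lost without the first or second SUPT11 DMSO array, the first or the third SUPT11 treated array, or the first or second RPMI-8402 treated array, with differences from -0.47 to -0.54. Without the 3 arrays with foreign transcripts the MT2A difference was -0.71 (adjusted p = 0.00437), and its SUPT11 change of 0.49 was then called higher (adjusted p = 0.0217).

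Notch genes differed little within the members. Of 16 members on the Notch list, 5 rose and 5 fell in RPMI-8402, none was called in SUPT11, and the difference was higher for ADAM17, a protease that can cut Notch receptors (0.34), and lower for MYC. MYC, a direct Notch target in T-ALL and a driver of ribosome production, was at 11.92, 12.01 and 11.86 in RPMI-8402 DMSO and 10.44, 10.73 and 10.52 with NVS-ZP7-3, and at 11.93, 11.95 and 11.90 in SUPT11 DMSO and 11.85, 11.79 and 11.81 with the compound. The DMSO levels of the lines overlapped, and the fall was 1.37 in size in RPMI-8402 against a change of -0.11 in SUPT11 (difference -1.26 ± 0.15, adjusted p = 5.19e-06). NOTCH1, NOTCH3 and HES1 were not members because SUPT11 DMSO averaged under log2 6 for each. LFNG, a glycosyltransferase that modifies Notch receptors, had 7.58 on the third RPMI-8402 DMSO array against 5.79 and 6.10 on the others. It reached a mean of log2 6 there, and so was a member, only through that array. Its RPMI-8402 change of -1.46 (limma adjusted p = 0.00706) is among the 5 falls, and its difference was not called.

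Growth genes fell in RPMI-8402, with few calls in SUPT11. Of 38 members of ribosome biogenesis and RNA polymerase I, 34 fell in RPMI-8402 and 3 in SUPT11, none rose in either, and the difference was lower for 19 and higher for none, against 9.83% lower among all genes tested (median -0.37). Without the 3 arrays with foreign transcripts it was lower for 14. POLR1B, a core subunit of RNA polymerase I, went from 11.63, 11.69 and 11.57 to 10.66, 10.77 and 10.64 in RPMI-8402 and from 12.34, 12.26 and 12.17 to 12.09, 12.07 and 12.18 in SUPT11. The RPMI-8402 groups were apart and the SUPT11 groups overlapped, with a difference of -0.80 ± 0.11 (adjusted p = 2.66e-05). WDR12, a factor of large subunit assembly, had a difference of -0.79 ± 0.08, and BYSL, a factor of small subunit assembly, of -1.07 ± 0.28. MRTO4, which acts in large subunit assembly, fell in both lines, and more in RPMI-8402 (difference -0.70 ± 0.13, adjusted p = 0.000982), with a SUPT11 call that was lost without the 3 arrays with foreign transcripts (adjusted p = 0.264). UTP20, a component of the small subunit processome, fell by 0.66 in RPMI-8402 and by 0.62 in SUPT11, with a difference of -0.04 (interval -0.40 to 0.32) whose sign was not stable over the alternatives. It was picked out after its values were seen, as a member with a like response in both lines. Of 24 members of the MYC and nucleotide supply list, 16 fell and 1 rose in RPMI-8402, none was called in SUPT11, and the difference was lower for 10 and higher for none.

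DNA replication and cytosolic chaperone genes went the same way. Of 42 members on the replication list 25 fell and 2 rose in RPMI-8402, and none was called in SUPT11. The difference was lower for 14 and higher for 1, and lower for 9 without the 3 arrays. CCNE1, the cyclin that starts S phase, went from 7.45, 7.69 and 7.53 to 6.20, 6.25 and 6.12 in RPMI-8402 and stayed between 12.02 and 12.33 on the SUPT11 arrays, whose groups overlapped (difference -1.25 ± 0.13, adjusted p = 1.08e-06). CDC6, a loader of the replicative helicase, had the higher difference (0.66 ± 0.10), having risen by 0.78 in RPMI-8402. Of 36 mitosis genes 4 fell and 2 rose in RPMI-8402 and the difference was called for AURKB alone, at -0.29, a call lost without the 3 arrays (adjusted p = 0.113). Of 27 cytosolic and mitochondrial heat shock proteins 17 fell and 1 rose in RPMI-8402, none was called in SUPT11, and the difference was lower for 10 and higher for 1. TRAP1, the Hsp90 of mitochondria, had a difference of -0.86 ± 0.18, and DNAJB4, an Hsp40 of the cytosol, of 0.83 ± 0.17.

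**Figure D3:**
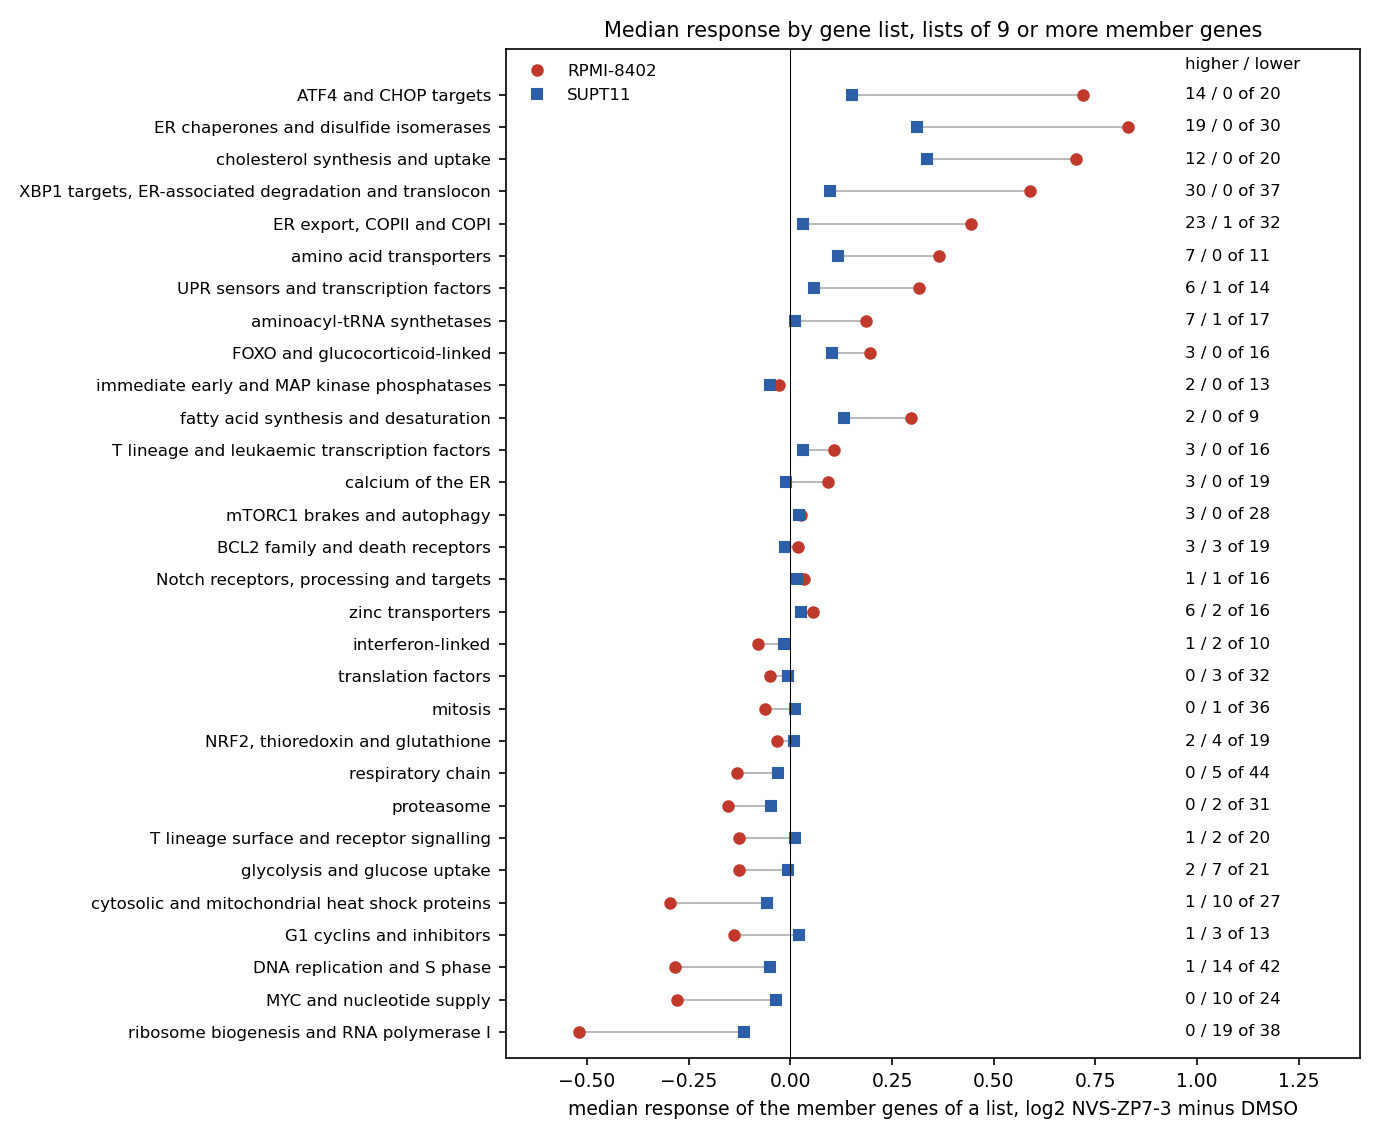
Median response (log2) of the member genes of each list in RPMI-8402 (circles) and SUPT11 (squares), lists of 9 or more members, ordered by the median difference, with the number of members called higher and lower in the difference. The RPMI-8402 median lies right of the SUPT11 median for the ATF4, ER, secretory and cholesterol lists and left of it for ribosome biogenesis, MYC, replication and heat shock lists.

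The widest positive differences were found outside these pathways too. TSC22D3 (GILZ), a leucine zipper protein known as a glucocorticoid target, was at 7.19, 7.40 and 7.77 in RPMI-8402 DMSO and at 11.85, 11.76 and 11.61 with NVS-ZP7-3, and at 9.12, 8.82 and 8.83 in SUPT11 DMSO and 9.61, 9.42 and 9.74 with the compound. Neither line's groups overlapped, but the SUPT11 change of 0.66 was not called, and the difference of 3.63 ± 0.32 (adjusted p = 1.96e-07) was the largest among the called members. When all probe sets of a gene were averaged it was 1.33, below ISG20 and SLC7A11, and ISG20 passed it under quantile normalization and without the second RPMI-8402 DMSO array. Of 16 members on its list of FOXO and glucocorticoid-linked genes 3 were higher in the difference, TSC22D3, BTG1 and CCNG2. ISG20, an RNA exonuclease known as an interferon target, went from 5.51, 6.71 and 6.11 to 10.04, 9.62 and 10.06 in RPMI-8402 and from 9.28, 9.37 and 9.48 to 9.85, 9.54 and 9.52 in SUPT11 (difference 3.53 ± 0.34, adjusted p = 5.77e-07). ISG20 reached a mean of log2 6 in RPMI-8402 DMSO, and so was a member, only through the second of those arrays, and it was not a member without that array. ULBP2, a ligand of the NKG2D receptor of cytotoxic cells, was at 6.01, 6.01 and 6.89 with DMSO and 8.77, 8.82 and 8.82 with NVS-ZP7-3 in RPMI-8402, and between 9.53 and 9.70 on all SUPT11 arrays (difference 2.55 ± 0.22, adjusted p = 1.44e-07). SLC4A4, a bicarbonate cotransporter (2.03 ± 0.17), TRAF3IP2, an adaptor of interleukin-17 signalling (1.99 ± 0.15), and CPEB3, an RNA-binding regulator of translation (2.06 ± 0.39), complete the 12 widest with the ER and amino acid genes already described. For ULBP2 and SLC4A4 the mean RPMI-8402 level after treatment, 8.80 and 8.22, was still under the mean that SUPT11 held with DMSO, 9.67 and 8.49, and for ISG20 it passed it, at 9.91 against 9.38.

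The widest negative differences were falls in RPMI-8402. CD2, an adhesion receptor of T cells, went from 8.70, 8.89 and 8.83 to 4.93, 5.48 and 5.24 in RPMI-8402 and from 7.47, 7.70 and 7.50 to 7.24, 6.71 and 7.33 in SUPT11. The groups did not overlap in either line, the SUPT11 change of -0.47 was not called, and the difference was -3.12 ± 0.19 (adjusted p = 1.13e-09). Of 20 members of its list, T lineage surface and signalling, 8 fell and 3 rose in RPMI-8402, against 21.5% and 15.1% of all genes tested. The difference was lower for 2 and higher for 1, against 9.83% and 7.59% of all genes tested, so the list was near those shares of the difference. CD28, also on that list, fell in RPMI-8402 from 12.29, 12.33 and 12.38 to 11.22, 11.39 and 11.18, with SUPT11 between 13.44 and 13.63. Its difference of -1.14 ± 0.54 was not called (adjusted p = 0.165). With the 3 arrays left out it was -1.12 and called (adjusted p = 1.1e-06), and the list then had 3 lower and 1 higher. CD44 fell by 0.57 in RPMI-8402, and its difference of -0.61 was called in neither fit. RASL11B, a small GTPase, fell from 7.28, 6.85 and 7.15 to 5.08, 3.98 and 3.87 in RPMI-8402 with SUPT11 between 7.34 and 7.67 (difference -2.67 ± 0.30, adjusted p = 4.36e-06). TKTL1, a transketolase-like protein, fell by 2.67 in RPMI-8402, from 6.41, 7.10 and 5.79 to 3.35, 3.21 and 4.74. CGN, a tight junction protein, fell there by 2.63, from 6.42, 7.27 and 5.82 to 3.87, 3.42 and 4.32. Both had an uneven baseline near the member limit, with the third RPMI-8402 DMSO array under log2 6. Their SUPT11 changes were -0.01 for both (differences -2.66 ± 0.43 and -2.62 ± 0.39). CHD7, a chromatin remodeller, went from 7.46, 7.77 and 7.57 to 5.24, 5.61 and 5.25 in RPMI-8402, with SUPT11 between 9.78 and 10.01 (difference -2.07 ± 0.13, adjusted p = 3.07e-09). GABRB2, a GABA receptor subunit, had a difference of -2.75 ± 0.75 with an uneven baseline, the third RPMI-8402 DMSO array being at 4.20 against 7.54 and 6.85. Its call (adjusted p = 0.0158) was lost in a fit of the 12 arrays alone, while without the 3 arrays with foreign transcripts, that array among them, the difference was -3.63 (adjusted p = 2.89e-05). EPS8, an actin regulator (-2.29 ± 0.41), GYG1, the primer of glycogen synthesis (-2.10 ± 0.25), LPAR6, a receptor of lysophosphatidic acid (-1.90 ± 0.45), REG4, a secreted lectin (-1.85 ± 0.33), ZNF354B (-1.70 ± 0.38) and FDXACB1 (-1.61 ± 0.33) complete the 12.

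**Figure D4:**
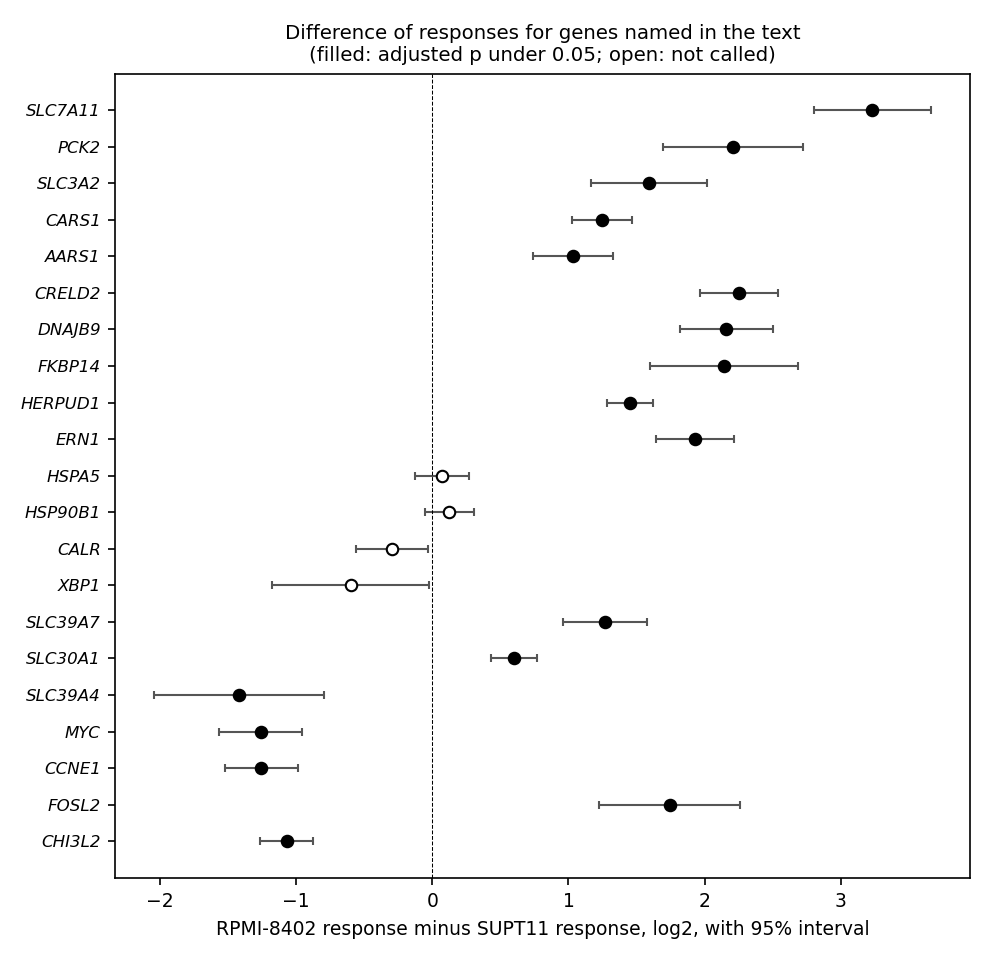
Difference of responses, RPMI-8402 minus SUPT11 (log2, horizontal axis), for 21 genes named in the text, with 95% intervals from the limma fit on 3 arrays a group. Filled points were called and open points were not: HSPA5, HSP90B1, CALR and XBP1 are the open points, close to or below 0, among ER genes that lie between 1.45 and 2.25.

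The only members called in both lines with opposite signs numbered 5 of the 1366. FOSL2, an AP-1 transcription factor, rose in RPMI-8402 from 8.47, 8.43 and 8.995 to 9.51, 9.63 and 9.68 and fell in SUPT11 from 10.43, 10.18 and 10.40 to 9.45, 9.65 and 9.58. The lines thus differed with DMSO and overlapped with NVS-ZP7-3, and the difference was 1.74 ± 0.25 (adjusted p = 5.46e-05). CHI3L2, a chitinase-like secreted protein, fell in RPMI-8402 from 10.55, 10.69 and 10.66 to 10.06, 10.07 and 10.02 and rose in SUPT11 from 9.57, 9.57 and 9.52 to 10.15, 9.91 and 10.05, so that it too met after treatment (difference -1.07 ± 0.09, adjusted p = 1.41e-07). The pseudogene ZBED10P (-1.09 ± 0.19), the adhesion molecule CADM1 (-0.52 ± 0.09) and the deubiquitinase USP46 (-0.43 ± 0.07) fell in RPMI-8402 and rose in SUPT11. The SUPT11 rises of ZBED10P and USP46 were not called without the 3 arrays with foreign transcripts (adjusted p = 0.0995 and 0.185), so that 3 of the 5 kept opposite calls there. The difference of CADM1 was not called when its probe sets were averaged (-0.18).

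A larger SUPT11 response was rare. It was found with a called difference for 8 members, among them TM6SF1, a lysosomal membrane protein that rose in SUPT11 from 8.12, 7.92 and 8.23 to 8.68, 8.75 and 8.71 and changed by -0.02 in RPMI-8402 (difference -0.64 ± 0.15, adjusted p = 0.00488). RBFOX2, a splicing regulator, rose by 0.34 in SUPT11 and changed by 0.00 in RPMI-8402 (difference -0.33 ± 0.09, adjusted p = 0.0132), and it was not called when its probe sets were averaged (-0.10). SH3BP5, a regulator of Rab11, fell by 0.27 in SUPT11 and changed by 0.14 in RPMI-8402 (difference 0.41 ± 0.09, adjusted p = 0.0045), and its SUPT11 fall was not called without the 3 arrays with foreign transcripts (adjusted p = 0.15). For TESPA1 and ZIC2 the call depended on the arrays: TESPA1, at -0.32 (adjusted p = 0.0459), was not called without the 3 arrays (adjusted p = 0.171), and ZIC2, at 0.89 (adjusted p = 0.0475), was not called in 10 of the 12 fits that left out an array of these lines.

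Among the 88 members with a called difference of 1 or more, the DMSO mean was higher in SUPT11 for 56 (63.6%) and the treated mean for 19 (21.6%), against 51.5% and 53% of all members. Among the 54 with a difference of -1 or less, SUPT11 was higher for 29 with DMSO (53.7%) and for 42 with NVS-ZP7-3 (77.8%). The DMSO and treated arrays enter both the levels and the difference, so these shares describe where the levels lay and test nothing.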

How the data were processed

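The deposited values are log2 expression values of a 3′ oligonucleotide array with 54675 probe sets. Per the submitters' processing notes the authors used GCRMA and limma, whose versions are not given in the sources used here. Values start at a floor of 2.18, and 52.4% to 53.9% of them lie near it. Of the probe sets 41097 have 1 gene symbol, 1801 have several and 11777 none, and only the first kind was used, with the brightest probe set for each gene. With limma 3.58.1 in R 4.3.3, 8 group means were fitted over 24 arrays for genes that reached log2 4 on 3 arrays or more, and the difference of responses was a contrast. Adjusted p-values are Benjamini-Hochberg values over 10661 genes. Residual degrees of freedom were 16. The number of arrays limits the precision. Fold sizes are differences of log2 values. The script was tested on simulated data. Alternatives covered filters, probe set choice, normalization, covariates and left-out arrays. Named genes were the 12 widest differences of each sign, members called with opposite signs, the widest SUPT11 responses, up to 4 members of each list and key genes. Members with the widest like response in both lines and no called difference were added after values were seen. The members, lists and key genes were chosen with earlier results of these data known. Array signal cannot tell fewer cells of a type from less RNA per cell.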

Additional observations from a re-analysis of the deposited data

Results flagged for a closer look

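A difference between the lines is the comparison itself, so only members with opposite called responses are given here, and groups of 3 arrays cannot be tested for a sample that stands apart. The tested difference of responses was 1.74 for FOSL2, which rose in RPMI-8402 and fell in SUPT11. It was -1.09 for ZBED10P, -1.07 for CHI3L2, -0.52 for CADM1 and -0.43 for USP46, which fell in RPMI-8402 and rose in SUPT11. The SUPT11 rises of ZBED10P and USP46 were not called without the 3 arrays with foreign transcripts (adjusted p = 0.0995 and 0.185). Outside the members, HBB was at log2 10.61 on the second SUPT11 NVS-ZP7-3 array, against at most 2.31 on the SUPT11 DMSO arrays.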

How the results depend on the processing

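The difference of responses was called for 1366 members, and for 1098 to 1288 when each array of the 2 lines was left out in turn; 904 were called in all 12 of those fits. The RPMI-8402 response was called for 2573 to 3121 members and the SUPT11 response for 64 to 90 in the same fits. With a size of at least 1 as a further condition, 142 differences remained. Over the other alternatives the difference was called for 1065 to 1657 members, the last in a fit of these 12 arrays alone. Whether replicate numbers pair the arrays was not tested. The correlations of same-numbered arrays ran from -0.065 to 0.128, and those of differently numbered arrays from -0.15 to 0.068. With a replicate block 1080 differences and 50 SUPT11 responses were called. Among 152 named genes, 83 of the 108 called kept call and direction under all 26 alternatives. Signs turned for NFE2L2, called at 0.38, which was -0.0086 with all probe sets averaged, and for 4 uncalled differences: HSPA5 -0.16 with all probe sets averaged and -0.0153 with the ACTB covariate, JUN 0.14 with the probe set brightest over 12 arrays, LONRF1 -0.0246 without the 3 arrays with foreign transcripts and -0.0813 to 0.25 with single arrays left out, UTP20 0.0528 with quantile normalization and -0.24 to 0.11 with single arrays left out. The ACTB ratio difference ran from 0.22 to 0.38 in RPMI-8402 and from 0.012 to 0.083 in SUPT11 with single arrays left out. The cause of these changes was not tested.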

Other observations

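Among all genes tested the difference was higher for 7.59% and lower for 9.83%, while 15.1% rose and 21.5% fell in RPMI-8402. The counts of differences that follow are to be read beside the first pair of shares and those of RPMI-8402 responses beside the second. Of 21 glycolysis and glucose uptake members, 9 fell and 3 rose in RPMI-8402, and the difference was lower for 7 and higher for 2. Of 28 members among mTORC1 brakes and autophagy genes, 8 rose and 1 fell in RPMI-8402, and the difference was higher for 3 and lower for none. Of 44 respiratory chain members 20 fell in RPMI-8402 and the difference was lower for 5, a share near that of all genes, or 1 without the 3 arrays with foreign transcripts. Of 31 proteasome members 19 fell in RPMI-8402 and the difference was lower for 2, or 0 in that fit. Of 19 members of the BCL2 family and death receptor list the difference was higher for 3 and lower for 3. CFLAR, an inhibitor of death receptor signalling, had a difference of -1.05, and BCL2L11 (BIM), a death-promoting BCL2 family member, of -0.80, which was not called when its probe sets were averaged.

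Some members without a called difference had an uneven baseline. On the RPMI-8402 DMSO arrays ACSL1 was at 6.16, 5.34 and 8.603, CCND2 at 6.05, 5.78 and 8.75 and DUSP6 at 5.59, 5.99 and 8.35. The third array was the high one each time, and each gene reached a mean of log2 6 there only through it. The RPMI-8402 change of DUSP6 (-1.57, limma adjusted p = 0.00785) still counts among the called falls. These genes were chosen after their values were seen.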
